A study of Mus musculus with 24 samples.

Results

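The complement genes C4b, C4a, C2, Cfb, C3, C1qa, C1qb, C1qc and Serping1 were looked up by symbol in a table of hypothalamic gene expression. Of the 9 genes listed, 5 had a row among the 13998 genes of the table, namely C1qa, C1qb, C1qc, Serping1 and C2. C4b, C4a, Cfb and C3 were not analysed here. C2 lies in the major histocompatibility region of mouse Chr 17, inside the CAST segment that distinguishes the groups and inside its critical interval, a part of that segment narrowed down by mapping, whereas C1qa, C1qb and C1qc (Chr 4) and Serping1 (Chr 2) lie outside it.

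The animals were male F2 mice of 2 genotypes for the subcongenic segment, with 12 mice in each, tested from 10 to 16 weeks of age. The cast/cast mice carried both copies of the segment from CAST/EiJ, a wild-derived inbred strain, on a C57BL/6J background, and the b6/b6 mice carried C57BL/6J alleles there. All of them descended from 1 B6.CAST-17.1 male bred to C57BL/6J females. They chose for 10 d between a carbohydrate/protein and a fat/protein diet, returned to chow for at least 2 weeks, and had these diets again for about 48 h and a 4 h fast before the tissue was taken. They were also selected on intake, cast/cast mice from the high and b6/b6 mice from the low tail of carbohydrate/protein intake, so genotype and intake cannot be told apart between the groups. One SAGE-Seq library was made per mouse, and its tag hits totalled between 7754202 and 13082873. The hypothalamic peptide genes Pmch (lowest mouse 2388) and Pomc (lowest mouse 320.3) were present in all 24 libraries, as were Agrp (15.1 to 3686.5), Hcrt (20.2 to 4101.8) and Avp (27.3 to 577.5), which varied widely between mice. The labels name no library batch. The study numbers overlap between the genotypes only in part, with 7 cast/cast and 5 b6/b6 mice numbered up to 150. Numbers ended at 270 for cast/cast mice and at 364 for b6/b6 mice, so study number was partly confounded with genotype.

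Complement is a cascade of plasma and tissue proteins that tags cells, debris and, in brain, synapses for removal. In the classical pathway the recognition protein C1q, built from equal numbers of A, B and C chains (encoded by C1qa, C1qb and C1qc), binds a surface and activates its attached proteases, which then cut C4 and C2 to form the enzyme that cleaves C3. C1 inhibitor, encoded by Serping1, inactivates those proteases. In brain, C1q is made mainly by microglia, and Serping1 is prominent in fibroblasts of the meninges and vessel walls.

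SAGE-Seq reads a single 27-base tag per transcript, beginning at the CATG nearest to the poly(A) tail, so a count is not divided by transcript length. The tags predicted from the GENCODE M21 transcripts (GRCm38) that match the RefSeq mRNAs of the table are shown because the counts are taken to come from them. Which CATG site of a transcript the hits came from was not checked. Capitals mark the CATG at which the enzyme NlaIII cuts.
C1qa: CATGaccctagtatggacagtggctga
C1qb: CATGgatgcgtaatcacggggtcaaat
C1qc: CATGgtgggcatagagggctccaacag
Serping1: CATGggtcgtgtatatgaccccagggg
C2: CATGgtcactgactcctttattagtct
Each of these was the 3′-most tag of no other annotated gene. All 5 genes are transcribed from the minus strand. The C1qa tag (chr4:136897770-136897796) lies in the coding part of exon 2 of 3. It starts 934 bases from the 3′ end of a 1040-base transcript that has only 2 CATG sites. The C1qb tag (chr4:136880275-136880301) spans the end of the coding sequence and the 3′ UTR in exon 3, 173 bases from the end. The C1qc tag (chr4:136890077-136890103) is coding, in exon 3, 300 bases from the end. That of Serping1 (chr2:84765578-84765604) is coding, in exon 8, 218 bases from the end, and that of C2 (chr17:34862831-34862857) is in the 3′ UTR in exon 18, 253 bases from the end. For comparison, the median distance over 8998 genes with a matched transcript and a mean normalized count of at least 50 was 162 bases, and 1.21% had a tag at least as far from the end as C1qa. The tag predicted for C4b (CATGgggatggacggggaaaccagtga, chr17:34728777-34728803) was identical to that of C4a (chr17:34809488-34809514), so a tag hit there could not be assigned to either copy.

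None of the 5 complement genes differed between genotypes by the rule used for calling. A gene was called when limma gave an unadjusted P of at most 0.01 and the means differed at least 1.5-fold in the same direction, a rule that called 208 of 13998 genes (1.49%), with 66 higher (0.471%) and 142 lower (1.01%) in cast/cast mice. Outside the CAST segment it called 0.707% of genes. None of the 5 had an unadjusted P under 0.05 in limma, edgeR or DESeq2, while 8.13% of all genes did in limma. Values are normalized counts, that is, tag hits divided by the size factor of the library. Differences are on the log2(normalized count + 1) scale, cast/cast minus b6/b6. The median difference was 0.16 over the 5 genes and -0.02 over all genes.

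**Figure D1:**
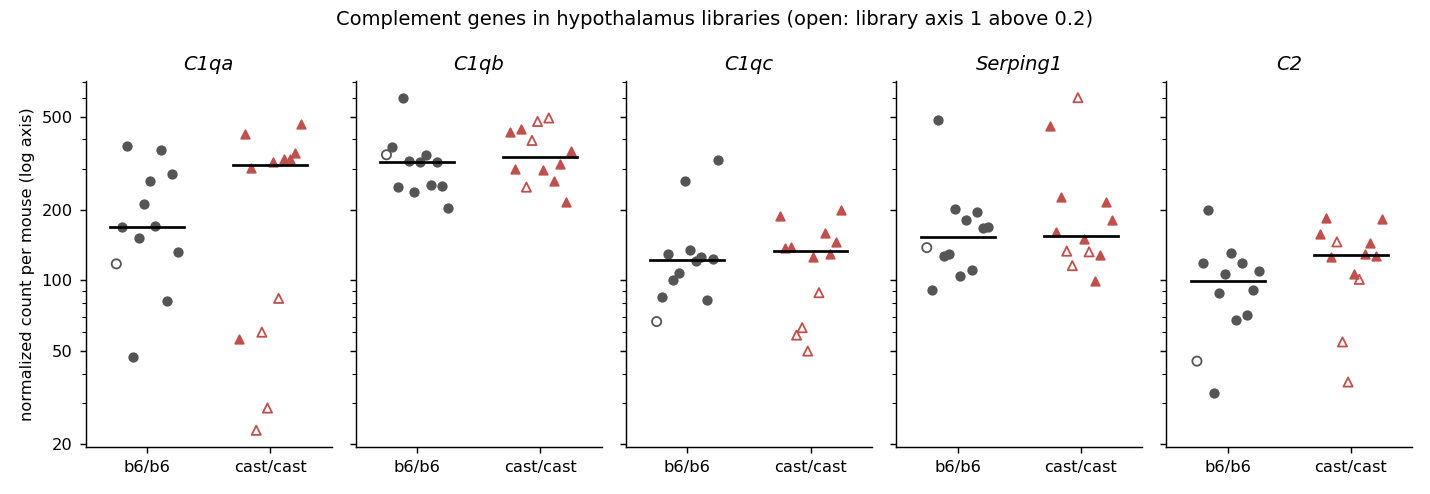
Normalized counts (log axis) of 5 complement genes in each of 12 b6/b6 (circles) and 12 cast/cast (triangles) mice, with a line at the median; open symbols are the 5 libraries above 0.2 on library axis 1. The genotypes overlap for every gene, and C1qa of cast/cast mice falls into values up to 83.8 and values from 301.3.

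C1qa, the A chain of C1q, varied more between mice than any other member. Its counts ranged from 47.2 to 373.4 (median 169.5) for b6/b6 and from 22.9 to 466.8 (median 310.5) for cast/cast mice. The groups overlapped, with 2 cast/cast mice above and 2 below all b6/b6 mice. Among cast/cast mice, numbers 1, 4, 5, 6 and 8 lay between 22.9 and 83.8 and the other 7 between 301.3 and 466.8, with none in the gap. The means were 197.0 ± 104.4 for b6/b6 and 231.0 ± 166.5 for cast/cast (SD, n = 12 each), a 1.17-fold ratio. On the log2 scale the difference was -0.17 (SE 0.48, limma P = 0.733, Benjamini-Hochberg adjusted P = 0.932), with a 95% interval from -1.15 to 0.82, or 0.45- to 1.77-fold. The sign was not stable. It was positive with edgeR and DESeq2, which compare means of counts (0.23 each), and on the log2 scale without the 5 libraries above 0.2 on axis 1 described below (0.69, limma P = 0.0898), without cast/cast mouse 4 (0.08) and without cast/cast mouse 6 (0.05). Those 5 libraries were left out after the data were seen, and 4 of them were from cast/cast mice with C1qa counts up to 83.8. The SD within genotypes was 1.29 on the log2 scale, larger than in 98.6% of the 3987 genes with a mean between 100 and 400, whose median SD was 0.50.

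C1qb, the B chain, was the most abundant of these transcripts and the steadiest. Its counts were 204.5 to 598.8 (median 320.7) for b6/b6 and 217.0 to 493.6 (median 335.8) for cast/cast mice. Every cast/cast mouse lay within the b6/b6 range, which was widened by b6/b6 mouse 4 at 598.8, the next highest b6/b6 value being 369.5. Means were 318.4 ± 102.0 and 353.1 ± 93.4 (SD, n = 12 each), with a log2 difference of 0.16 (SE 0.17, limma P = 0.35, adjusted P = 0.781). The 95% interval, 0.882- to 1.41-fold, excluded a 1.5-fold difference in either direction. Its SD within genotypes was 0.39, and 28% of genes of like mean had a smaller one.

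C1qc, the C chain, ranged from 66.7 to 327.4 (median 122.1) for b6/b6 and from 49.9 to 200.2 (median 133.2) for cast/cast mice. The highest values were those of b6/b6 mice 6 (266.3) and 12 (327.4), and cast/cast mice 4, 5 and 6 lay below all b6/b6 mice. Means were 139.2 ± 77.7 and 123.5 ± 49.4 (SD, n = 12 each). The log2 difference was -0.14 (SE 0.26, limma P = 0.584, adjusted P = 0.885), with an interval from 0.628- to 1.31-fold. Without b6/b6 mice 6 and 12 it was 0.10 (limma P = 0.648), so its sign differed without those 2 libraries.

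Serping1, the inhibitor of the C1 proteases, ranged from 90.8 to 482.3 (median 153.0) for b6/b6 and from 99.2 to 602.9 (median 154.9) for cast/cast mice. The medians were close, and 3 mice stood far above the others, namely cast/cast mouse 6 (602.9), b6/b6 mouse 3 (482.3) and cast/cast mouse 1 (458.5), the next highest being cast/cast mouse 3 at 226.2. Means were 174.8 ± 103.3 and 216.8 ± 154.5 (SD, n = 12 each), with a log2 difference of 0.22 (SE 0.27, limma P = 0.423, adjusted P = 0.823) and an interval from 0.79- to 1.72-fold. Without these 3 mice the difference was 0.07 (limma P = 0.701).

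C2, the protease that joins C4 in the enzyme acting on C3, occupies chr17:34862602-34882100 and is the single member of the interval with values. Its counts ranged from 33.0 to 200.1 (median 98.9) for b6/b6 and from 36.8 to 184.3 (median 128.4) for cast/cast mice, all of which lay within the b6/b6 range. Means were 98.5 ± 44.1 and 124.8 ± 45.2 (SD, n = 12 each). The log2 difference was 0.36 (SE 0.27, limma P = 0.196, adjusted P = 0.701), and its interval ran from 0.873- to 1.88-fold. This was the largest difference among the 5 genes and was above 0 in all alternatives tried, but it did not pass the call rule in any. It was 0.58 both without the 5 libraries above 0.2 on axis 1 (limma P = 0.0231, adjusted P = 0.192) and without the 3 mice of high Serping1 (limma P = 0.0241, adjusted P = 0.639). Both sets were chosen after the data were seen, and both held cast/cast mouse 6, which had the lowest cast/cast count (36.8). The first held 4 cast/cast mice and 1 b6/b6 mouse, and the second held b6/b6 mouse 3, which had the highest b6/b6 count (200.1). The difference ranged from 0.23 to 0.50 when each mouse was left out in turn.

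The stretch around C2 contained genes that differed clearly, namely Neu1 and 1110038B12Rik. Of the 9 other genes with a row within 100 kb of C2, 3 were called, all lower in cast/cast mice. In the whole interval 26.6% of the 229 genes measured were called (20.5% lower and 6.11% higher). Neu1, a lysosomal sialidase, was 310.1 ± 52.0 against 151.3 ± 45.9 for cast/cast (SD, n = 12 each), a log2 difference of -1.08 (limma P = 4.41e-07, adjusted P = 0.000112), and all 12 cast/cast mice were below every b6/b6 mouse. The noncoding gene 1110038B12Rik was 179.2 ± 35.1 against 5.58 ± 3.81, a log2 difference of -5.05 (limma P = 1.71e-15, adjusted P = 2e-12), again with no overlap. Zbtb12, a zinc finger gene next to C2, was 67.0 ± 24.4 against 40.8 ± 21.5, a log2 difference of -0.81 (limma P = 0.00721, adjusted P = 0.451). The other 6 neighbours, Stk19, Dom3z, Skiv2l, Ehmt2, Hspa1b and Hspa1a, did not pass. Hspa1a and Hspa1b are near-identical copies, so the split between them is uncertain. Whether CAST alleles change the CATG site or tag of any of these genes, C2 included, was not tested.

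The order of mean levels was C1qb (335.7), C1qa (214.0), Serping1 (195.8), C1qc (131.4) and C2 (111.6), placing C1qb above 66.4% and C2 above 43.6% of all genes in the table. C1qb exceeded C2 in 24 of 24 mice, C1qc in 22 and Serping1 in 21. The middle of the order was not separated, as C1qa exceeded Serping1 in 13 of 24 mice and C1qb exceeded C1qa in 15. The ratio of C1qb to C1qa had a median of 1.51 but ran from 0.62 in cast/cast mouse 11 to 16.7 in cast/cast mouse 6. As a share of the summed C1q counts, C1qb made up 30.5% to 85.9% across mice. Tag hits behind the values were 18 to 499 for C1qa, 188 to 761 for C1qb, 42 to 301 for C1qc, 74 to 523 for Serping1 and 31 to 217 for C2.

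Among the C1q chains, C1qa and C1qc varied together across mice, and neither varied together with C1qb. Correlations were computed on log2 values centred within each genotype over 24 mice, with 10 pairs of members, two-sided permutation P-values (100000 resamples within genotype) and Benjamini-Hochberg adjustment over the pairs. C1qa and C1qb were inversely related (r = -0.46, P = 0.0276, adjusted P = 0.0551; rho = -0.50, P = 0.0211, adjusted P = 0.0517), a relation that did not pass the adjustment. The same held for C1qb and C1qc (r = -0.43, adjusted P = 0.068; rho = -0.47, adjusted P = 0.0517). C1qa and C1qc were positively related (r = 0.57, P = 0.00436, adjusted P = 0.0109; rho = 0.61, adjusted P = 0.0284), but r was 0.36 without cast/cast mice 4 and 6. With library axis 1, described below, removed, the sign was the opposite for C1qa and C1qc (-0.57) and for C1qb and C1qc (0.24). For C1qa and C1qb r was then -0.02.

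C2 varied with C1qa (r = 0.62, adjusted P = 0.0099; rho = 0.55, adjusted P = 0.0284) and with C1qc (r = 0.59, adjusted P = 0.0109; rho = 0.54, adjusted P = 0.0284), and inversely with C1qb (r = -0.58, adjusted P = 0.0109; rho = -0.45, adjusted P = 0.0535). Without the 2 farthest mice these were 0.68, 0.50 and -0.45. Serping1 had no pair with an adjusted P under 0.5. Within the mice numbered up to 150 and those numbered over 150 (12 each), C1qa and C2 gave 0.47 and 0.83, C1qc and C2 0.52 and 0.63, C1qb and C2 -0.44 and -0.60, C1qa and C1qc 0.42 and 0.78, and C1qa and C1qb -0.11 and -0.75. Serping1 changed sign between these sets of mice with C1qa (-0.55 and 0.58), C1qb (0.65 and -0.61) and C2 (-0.63 and 0.58).

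These pairs moved with the main axis of variation between libraries. Library axis 1, the first principal component of 9400 genes outside the CAST segment with a mean of at least 50 and without the members, held 39.4% of their variance. It ran from -0.32 to 0.28 for b6/b6 mice and from -0.17 to 0.45 for cast/cast mice, and the libraries above 0.2 were cast/cast mice 4, 5, 6 and 8 and b6/b6 mouse 1. Over 10 relations of members with 2 axes, C1qc was most closely related to axis 1 (r = -0.91, adjusted P = 0.0001; rho = -0.90, adjusted P = 0.0001), where the permutation P of 1e-05 was the smallest 100000 resamples can give. C1qa was inversely related too (r = -0.79, adjusted P = 0.0004; rho = -0.72, adjusted P = 0.00165), as did C2 (r = -0.70, adjusted P = 0.000833; rho = -0.51, adjusted P = 0.0278). C1qb rose (r = 0.56, adjusted P = 0.0132; rho = 0.58, adjusted P = 0.0171), and for Serping1 r was 0.02 (adjusted P = 0.916).

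Without the 2 mice farthest on the axis, cast/cast mice 4 and 6, r was -0.87 for C1qc, -0.67 for C1qa, -0.72 for C2 and 0.70 for C1qb. In mice numbered up to 150 and over 150 it was -0.89 and -0.86 for C1qc, -0.77 and -0.89 for C1qa, -0.65 and -0.76 for C2, 0.23 and 0.67 for C1qb, and 0.33 and -0.60 for Serping1. With axis 1 removed, C1qa and C2 gave 0.16, C1qc and C2 -0.17, C1qb and C2 -0.31, C1qa and C1qb -0.02, C1qb and C1qc 0.24, and C1qa and C1qc -0.57. Among all genes of the table, 8% had an r with axis 1 at or below that of C1qa and 1.64% at or below that of C1qc. Library axis 2 held 20% of the variance. On it b6/b6 mice 6 and 12, with the highest C1qc, lay above 0.4 and all other mice below. Over 24 mice r with axis 2 was 0.14 for C1qc (adjusted P = 0.665), -0.30 for C2 (adjusted P = 0.268) and -0.37 for C1qa (adjusted P = 0.0789), with rho of -0.19, -0.55 and -0.46 (adjusted P = 0.529, 0.0194 and 0.0278). Without those 2 mice r was -0.86, -0.74 and -0.63, so these values rested on them.

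**Figure D2:**
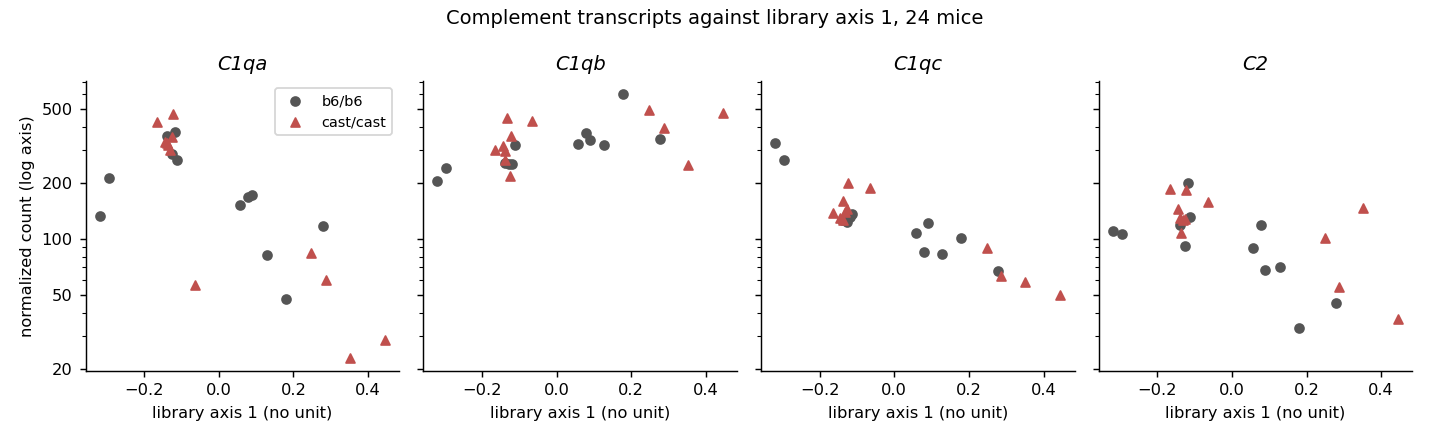
Normalized counts (log axis) of C1qa, C1qb, C1qc and C2 against the position of each library on axis 1 (no unit), with b6/b6 mice as circles and cast/cast mice as triangles. C1qc, C1qa and C2 fall along the axis (r = -0.91, -0.79 and -0.70) while C1qb does not (r = 0.56).

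The position of the tag also moved with axis 1 across the table. Among the 8998 genes with a predicted tag, r with axis 1 had a median of 0.37 for the 2816 genes with a tag up to 100 bases from the 3′ end, -0.11 for the 2350 genes at 201 to 400 bases, and -0.63 for the 214 genes at over 800 bases. Across these genes, which are not independent, r with axis 1 and log2 distance had a Pearson correlation of -0.30. C1qa (934 bases, r = -0.79) and C1qb (173 bases, r = 0.56) lay between the quartiles of their distance classes. C1qc (300 bases, r = -0.91) and C2 (253 bases, r = -0.70) lay below the lower quartile of theirs, -0.60. RNA quality per library was not analysed here, and its part in these values was not tested.

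**Figure D3:**
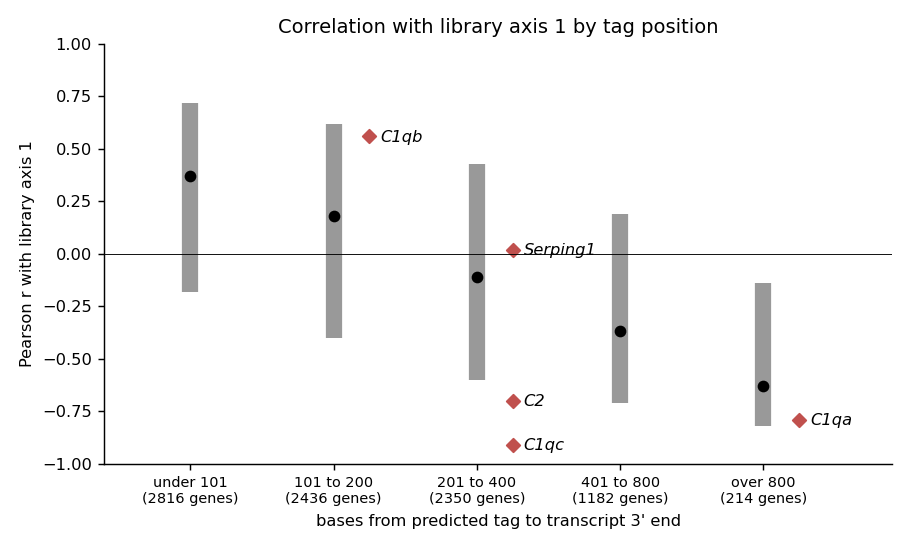
Pearson r of each gene with library axis 1 by the distance in bases from its predicted tag to the 3′ end of the transcript. Black points are medians, grey bars run from the lower to the upper quartile, and red diamonds the 5 complement genes; the median falls from 0.37 to -0.63 with distance.

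Microglial genes were compared with C1q because microglia are its main source in brain. Of 18 microglial markers 17 were measured, with the chemokine receptor gene Cx3cr1 (mean 1370.1) among the most abundant, and their summed count was 6481 to 9225.8 for b6/b6 mice and 5318.7 to 10443.6 for cast/cast mice. None was called. Over 50 relations of the members with 10 lists, C1qb rose with the microglial sum (r = 0.50, P = 0.0131, adjusted P = 0.0408; rho = 0.60, adjusted P = 0.0192), though r was 0.38 without cast/cast mice 4 and 6. It was 0.76 in mice numbered up to 150 and 0.27 in those numbered over 150. C1qa (r = 0.03, adjusted P = 0.965) and C1qc (r = -0.24, adjusted P = 0.425) showed no such relation before axis 1 was removed. With axis 1 removed, r with the microglial sum was 0.43 for C1qb, 0.42 for C1qa and 0.01 for C1qc, without a P-value. The relation was then alike for C1qa and C1qb. In whole tissue, fewer cells of a type and less RNA per cell cannot be told apart. Aif1 (471.0 ± 214.6 and 698.0 ± 365.6; log2 difference 0.56, limma P = 0.0411, adjusted P = 0.607) and Tmem119 (22.9 ± 12.4 and 13.6 ± 8.63; -0.78, limma P = 0.0268, adjusted P = 0.586) were the markers with the lowest P and were picked after their values were seen.

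Serping1 followed fibroblast and meningeal genes. Of 12 such markers 11 were measured, led by the growth factor gene Igf2 (mean 509.7) and by Serpinf1 (152.0). Their sum was 472.9 to 2359.6 for b6/b6 mice and 408.8 to 5488.3 for cast/cast mice, and the 3 mice above 2000 were those with the highest Serping1, namely cast/cast mouse 6 (5488.3), cast/cast mouse 1 (2839.4) and b6/b6 mouse 3 (2359.6). The correlation was 0.91 (P = 1e-05, adjusted P = 0.00025; rho = 0.80, adjusted P = 0.00025), and 0.81 without cast/cast mice 1 and 6. It was 0.92 both in mice numbered up to 150 and in those over 150 and 0.91 with axis 1 removed. The genes most like Serping1 over 24 mice in the whole table were Igf2 (r = 0.88), Nupr1 (0.86) and Mgp (0.83), the last encoding a matrix protein. Igf2 is a large part of the fibroblast sum, so its r and that of the sum are not separate results. No gene of the fibroblast list was called between genotypes. How much meningeal tissue each sample held was not tested.

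**Figure D4:**
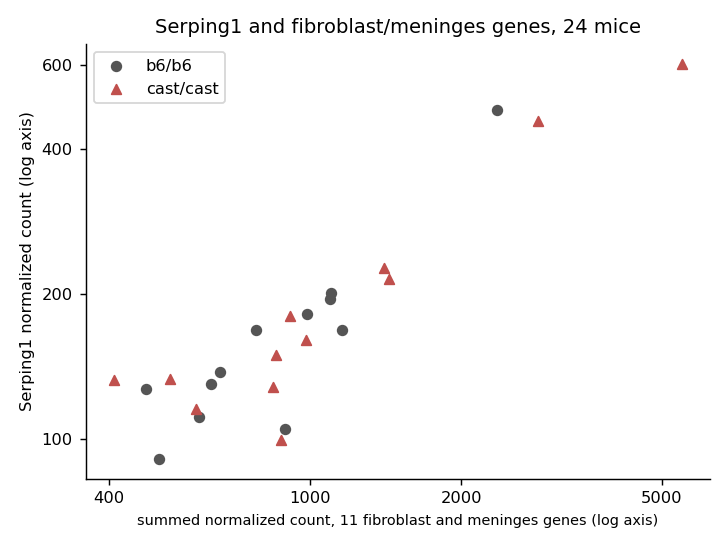
Serping1 normalized count against the summed normalized count of 11 fibroblast and meninges genes (both log axes), with 12 b6/b6 mice as circles and 12 cast/cast mice as triangles. The 3 mice with a sum above 2000 also have the highest Serping1 (r = 0.91).

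Interferon-responsive genes were also examined, since several complement genes respond to interferon. Of 23 listed 16 were measured, led by B2m (mean 1948.2) and Irf9 (465.0), and none was called. Their sum was 2285 to 5774.1 (median 2912.7) for b6/b6 mice and 1234.4 to 6254.2 (median 3427.3) for cast/cast mice. A large part of it was thus the value of 1 gene, B2m. C1qa rose with this sum (r = 0.75, adjusted P = 0.00237; rho = 0.77, adjusted P = 0.0015), as it did in mice numbered up to 150 (0.62) and over 150 (0.92), without cast/cast mice 4 and 12 (0.63) and with axis 1 removed (0.51). C1qa was not related to this list alone. It was also related to the astrocyte sum (r = -0.73, adjusted P = 0.00719) and the neuron sum (r = 0.53, adjusted P = 0.0182). It was not related to the microglial (r = 0.03), border macrophage (r = -0.10) or fibroblast (r = -0.01) sums. C1qc gave 0.50 with the interferon sum (adjusted P = 0.041; rho = 0.59, adjusted P = 0.0197), but 0.34 without cast/cast mice 4 and 12. C2 gave 0.45 (adjusted P = 0.0778; rho = 0.53, adjusted P = 0.0393), and C1qb -0.16 (adjusted P = 0.661).

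The genes most like each C1q chain and C2 were not complement genes. Over 24 mice, C1qa was most like Rab4b, Ctns and Nudt22 (r = 0.94 each), C1qb like Cuta (0.86), Bex2 (0.84) and Pepd (0.84), and C1qc like Asna1 (0.97), Ssr4 (0.96) and Pttg1 (0.95). C2 was most like Arhgef10 (0.89), Spnb1 (0.87) and Rfx5 (0.87). For C1qa, 15% of all genes in the table were more like it than C1qc, and 79.3% more than C1qb.

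The rest of the complement system was likewise not called. Of 80 further complement and C1q-domain genes listed, 43 were measured, and 0 were called in either direction by limma, edgeR or DESeq2, beside 1.49% of all genes in limma. An unadjusted P under 0.05 was given to 1 by limma, 2 by edgeR and 3 by DESeq2. Their median log2 difference was -0.09. By role, the measured genes were 5 of 19 initiating proteases and recognition molecules (median -0.30), 0 of 7 terminal components, 17 of 23 regulators (median -0.10), 9 of 12 receptors (median 0.09) and 12 of 19 C1q-domain relatives (median -0.15).

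Among the receptors, C3ar1, which binds the C3a fragment, had the lowest P of all, with 35.0 ± 8.16 for b6/b6 and 49.4 ± 20.9 for cast/cast (SD, n = 12 each; log2 difference 0.41, limma P = 0.0475, adjusted P = 0.608), and 3 cast/cast mice lay above all b6/b6 mice. C5ar2 (row Gpr77), a C5a receptor, was 10.2 ± 7.5 and 14.8 ± 8.79 (0.84, limma P = 0.0774, adjusted P = 0.621). Of the lectin pathway, the protease gene Masp1 was 7.95 ± 5.63 and 4.99 ± 3.22 (-0.67, limma P = 0.0725, adjusted P = 0.62).

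Several regulators were among the next lowest P-values. Clu, encoding clusterin, which inhibits the terminal complex and is abundant in astrocytes, was 7144.8 ± 2067.8 and 5649.4 ± 2671.0 (-0.50, limma P = 0.0966, adjusted P = 0.639). Cd59a, an inhibitor of the membrane attack complex, was 817.4 ± 280.3 and 1043.7 ± 461.5 (0.33, limma P = 0.143, adjusted P = 0.67), with 4 cast/cast mice above all b6/b6 mice. Also among the 10 lowest P-values were Cbln2, a synaptic organizer with a C1q domain (-0.37), and the sushi-domain genes Srpx2 (0.63), Csmd2 (-0.72) and Csmd3 (-0.33), with limma P between 0.103 and 0.177.

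**Figure D5:**
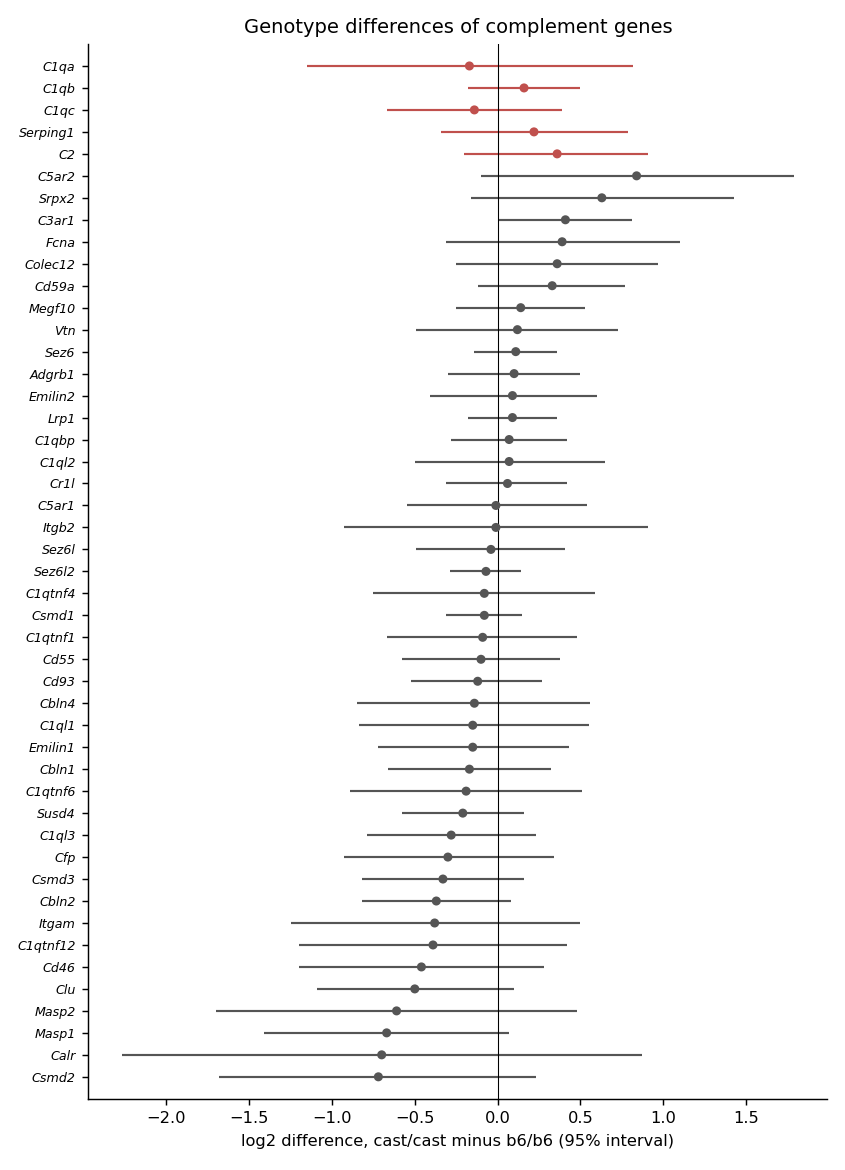
Log2 difference between genotypes (cast/cast minus b6/b6) with its 95% interval from limma for the 5 complement genes (red, top) and 42 of the 43 other measured complement and C1q-domain genes (grey, ordered by difference; 1 is not reported here). None passed the call rule, and among the members the interval is widest for C1qa and narrowest for C1qb.

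Within each genotype, no relation of a member with the 10 d carbohydrate/protein intake of the mice passed the test. Pearson r was between -0.54 (C1qc, b6/b6) and 0.37 (C1qa, b6/b6) in the 10 relations of 12 mice each, and the lowest permutation P was 0.0774 (adjusted P = 0.763, Benjamini-Hochberg over the 10 relations). Spearman rho for that relation was -0.20 (permutation P = 0.526), and r was -0.09 without the 2 mice farthest from the median intake. For C2, r was 0.31 for b6/b6 mice and -0.42 for cast/cast mice (permutation P = 0.328 and 0.153), and 0.65 and -0.22 without the 2 mice farthest from the median intake of each genotype.

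No change of the genotype differences with study number passed the test. A term for genotype by study number (up to or over 150) gave limma P = 0.0654 for C1qc, 0.126 for C1qb, 0.151 for C1qa, 0.282 for Serping1 and 0.523 for C2 (adjusted P of 0.384 or more). In mice numbered up to 150 the log2 differences were -0.90 for C1qa (limma P = 0.232), 0.45 for C1qb (limma P = 0.0636), -0.68 for C1qc (limma P = 0.0975), 0.51 for Serping1 (limma P = 0.245) and 0.12 for C2 (limma P = 0.723). In those numbered over 150 the sign was the opposite for C1qa (0.53), C1qb (-0.06), C1qc (0.25) and Serping1 (-0.10), none with P under 0.3. Above 150, numbers reached 270 for cast/cast and 364 for b6/b6 mice, so study number and genotype were not separated there.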

How the data were processed

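Hypothalamic RNA of 24 F2 mice was measured by SAGE-Seq, with 1 library per mouse, and genotypes were taken from the labels. The signal deposited by the authors for each mouse is the number of tag hits per gene, aligned to GRCm38 and RefSeq mRNA, after division by a size factor from DESeq. Deposited columns with the authors' own comparisons (fold change, its log2, P and adjusted P) were not used. The table held 19529 rows for 13998 genes, and repeated rows were identical. All values were whole multiples of 1 step per library (tolerance 0.01), which gave back whole tag hits. The lowest mean of any gene was 6.03, so rarer transcripts were not analysed here.

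The genotypes were compared over all 24 mice with limma 3.58.1 (eBayes with trend), without covariates, on log2(normalized count + 1) of genes with a mean of at least 5. The pseudocount of 1 understates differences of rare transcripts. A gene was called at an unadjusted P of 0.01 or less, the level used in the study, with means at least 1.5-fold apart. Recovered tag hits were tested with edgeR 4.0.16 (quasi-likelihood, TMM) and DESeq2 1.42.0. Further alternatives were the pseudocount, the minimum mean, rescaling to equal totals, study number as covariate or split, other call rules and leaving out each mouse. Added after seeing the data were the library axes as covariates, leaving out libraries high on an axis or in the fibroblast sum, and the interaction with study number. The scripts were tested on simulated data.

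Named were all members, the 10 other complement genes of lowest P, called genes within 100 kb of C2, the 2 most abundant and all called genes of each marker list where the list bears on a member, and the 3 genes most like each member. Some genes that this rule names are not reported here. The members and lists were chosen with earlier results of these data known. Tags carry no molecular identifiers, so the spread between mice, not counting error, sets the precision. A planned test of the share of C4 hits assigned to C4a could not be run, as C4a and C4b were not analysed here.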

Additional observations from a re-analysis of the deposited data

How the results depend on the processing

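None of the 5 complement genes was called in any alternative, including the 24 fits that left out 1 mouse each, and the sign of C2 did not change. For C1qa the difference of -0.17 became 0.23 with edgeR, 0.23 with DESeq2, 0.53 in mice numbered over 150, 0.69 without the libraries above 0.2 on axis 1 and 0.32 without the mice above 2000 in the fibroblast sum. For C1qc the difference of -0.14 became 0.09 with both library axes as covariates, 0.25 in mice numbered over 150, 0.19 without the libraries above 0.2 on axis 1 and 0.10 without those above 0.4 on axis 2. In mice numbered over 150 C1qb became -0.06 and Serping1 -0.10. Leaving out each mouse in turn gave -0.33 to 0.08 for C1qa (0.08 without cast/cast mouse 4 and 0.05 without cast/cast mouse 6), 0.10 to 0.24 for C1qb, -0.22 to -0.02 for C1qc, 0.07 to 0.37 for Serping1 and 0.23 to 0.50 for C2. The number of other complement genes called higher went from 0 to 1 in mice numbered up to 150, the gene being C5ar2 (log2 difference 2.13, limma P = 0.00571, adjusted P = 0.277). The correlation of C1qb with intake in b6/b6 mice went from 0.11 to -0.40 without the 2 mice farthest from the median intake. The causes were not tested. Rescaling libraries to equal totals moved the median of all genes from -0.02 to -0.11 and kept the sign of each member.

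No paired analysis was possible because the labels pair no cast/cast mouse with a b6/b6 mouse. The alternatives planned for the share of C4 tag hits were not run, as C4a and C4b were not analysed here.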

Other observations

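The other marker lists gave no called gene between genotypes. These were border macrophages (6 of 8 measured, led by Cd163 and Pf4), astrocytes (12 of 12, Slc1a2 and Aldoc), choroid plexus (9 of 12, Prlr and Col8a1), endothelial and mural cells (12 of 12, Vtn and Ly6c1), blood (3 of 8, Hba-a1 and Hba-a2), neurons (9 of 10, Syp and Snap25) and oligodendrocytes (10 of 10, Mbp and Cldn11). Vtn is also among the complement regulators.

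Serping1 rose with the border macrophage sum over 24 mice (r = 0.81, permutation adjusted P = 0.0005; rho = 0.63, adjusted P = 0.0139), and r was 0.60 without cast/cast mouse 6 and b6/b6 mouse 3. C1qc fell as the choroid plexus sum rose (r = -0.83, adjusted P = 0.00025; rho = -0.79, adjusted P = 0.00025; -0.78 without cast/cast mice 6 and 12). That sum had a median of 1037.7 for b6/b6 and 987.9 for cast/cast mice. Most of it came from Prlr (mean 794.8), the next being Col8a1 (85.4), so it is largely the value of 1 gene. C1qa fell as the astrocyte sum rose (r = -0.73, adjusted P = 0.00719; rho = -0.62, adjusted P = 0.0287; -0.52 without cast/cast mice 4 and 6). Neither list was particular to 1 member. C1qc also fell as the astrocyte sum rose (r = -0.64, adjusted P = 0.00371, rho = -0.70, adjusted P = 0.00375). The choroid plexus sum was inversely related to C2 (r = -0.67, adjusted P = 0.00371) and C1qa (r = -0.63, adjusted P = 0.0106). By rho neither passed (adjusted P = 0.0982 and 0.0766). Some further relations with an adjusted P under 0.05 are not reported here. The part of library axis 1 in the relations of C1qa, C1qc and C2 with the astrocyte and choroid plexus sums was not tested.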
